A study of Mus musculus with 3 samples.

Results

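Leukocytes from 4T1 tumours that lacked p38α only in the tumour cells (p38KO) were set directly against leukocytes from 4T1 tumours of mice given the p38 inhibitor LY2228820 (p38i), with 1 single-cell library on each side. The comparison addressed where loss of the kinase in the cancer cell and exposure of the whole animal to the drug left different transcripts in the same kinds of immune cell. Cells with at least 1500 unique molecular identifiers (UMIs, which count each captured transcript a single time), 300 or more genes and no more than 20% of counts from mitochondrial genes entered the work. They were then assigned to 6 classes by raw counts of Csf3r and Cxcr2 (neutrophils), Ly6c2 and Fn1 (monocytes), C1qa (macrophages), Cd3e (T cells), Ncr1 (NK cells) and Flt3 (dendritic cells). This gave 6935 cells, 3173 from p38KO and 3762 from p38i, of 12472 kept cells and 16143 deposited barcodes in the 3 libraries of the series. The vehicle library is quoted as a reference level and entered no ratio.

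All mice were female BALB/c, 6 to 8 weeks old, with 200000 cells of the luciferase-marked mouse mammary carcinoma line 4T1-luc placed in the fourth mammary fat pad, the natural site of these tumours. The p38KO tumours grew from p38a-KO-H9, a single CRISPR-Cas9 clone, and the labels record no treatment for these mice. The p38i mice carried p38α wild-type cells and received LY2228820 at 30 mg/kg by gavage each day for 10 days from day 4, and the vehicle mice received DPBS on the same schedule. On day 14 the tumours of 3 mice in each group were pooled and live CD45+ cells, the leukocytes, were sorted. Each library is therefore a pool of 3 tumours with no replicate library, so no test between groups was possible. The clone, the gavage, the tumour pool and the library run cannot be told apart from the kind of p38 blockade. The host leukocytes of p38KO mice keep their own Mapk14, the gene for p38α, so its level in these cells does not check the label.

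p38α is a stress-activated MAP kinase. MKK3 and MKK6 activate it, and it acts in large part through the kinase MK2, which stabilises short-lived mRNAs of cytokines and chemokines, many of them with AU-rich elements bound by the decay factor tristetraprolin (Zfp36). In myeloid cells the pathway is known for its part in making TNF, IL-1 and chemokines. In T cells and NK cells it acts downstream of stress, cytokine and antigen receptors.

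The kept cells held 24374173 UMIs in p38KO and 24210342 in p38i, with median depths of 3317 and 3038 UMIs per cell. The median mitochondrial share was higher in p38KO, 2.10% against 0.968%, and it was higher in p38KO in each of the 6 classes. Of the barcode sequences, 9 occurred in both libraries, 5 of them among kept cells and 1 in the same class. At the edge of the depth limit, 202 barcodes of p38KO and 264 of p38i had 1500 to 1599 UMIs, and 163 and 258 had 1400 to 1499. At the edge of the macrophage gate, 11 cells of p38KO and 1 cell of p38i were macrophages with 3 C1qa UMIs, and 104 and 17 cells with 2 C1qa UMIs stayed outside. Each class carried the markers of its name, and the monocyte class also carried those of neutrophils and macrophages. CPM is a gene's share of all counts in the class, scaled to 1000000. Over 10 neutrophil markers the summed level was 147604 CPM in p38KO neutrophils and 213375 in p38i neutrophils. In macrophages 9 macrophage markers reached 32096 and 22632 CPM, and in T cells 9 T cell markers reached 6447 and 6027 CPM. In NK cells 8 NK markers reached 5891 and 9096 CPM, and in dendritic cells 8 dendritic cell markers reached 1945 and 2055 CPM. In monocytes 8 monocyte markers reached 6578 and 5390 CPM. Neutrophil markers there reached 3612 and 9767 CPM, and macrophage markers 5866 and 4285 CPM.

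The largest difference in composition was in macrophages, the resident and recruited phagocytes that express complement C1q. They made up 15.1% (14.0 to 16.3, 582 cells) of kept cells in p38KO and 3.96% (3.43 to 4.56, 190 cells) in p38i, and 4.40% in vehicle. All intervals given for shares, levels and ratios are 95% intervals and cover counting error only. Monocytes, the circulating precursors of many tumour macrophages, were fewer in p38KO, 9.80% (8.88 to 10.8, 378 cells) against 15.8% (14.8 to 16.9, 758 cells), with 11.7% in vehicle. Moving the gate to counts thinned to the same depth brought the monocyte difference from -6.02 to -1.26 percentage points. Neutrophils were the largest class in both libraries, at 41.0% (39.5 to 42.6, 1583 cells) and 43.4% (42.0 to 44.8, 2079 cells), and the sign of that small difference depended on the gate, from -2.35 points to 2.23 points when the gate minimums were doubled. T cells made up 12.3% (11.2 to 13.3, 473 cells) and 12.3% (11.4 to 13.3, 589 cells). NK cells were 3.01% (2.49 to 3.59, 116 cells) and 2.21% (1.81 to 2.67, 106 cells), and dendritic cells 1.06% (0.763 to 1.44, 41 cells) and 0.835% (0.597 to 1.13, 40 cells), with overlapping intervals in each of these 3 classes. The macrophage difference of 11.1 points was 9.02 points with a mitochondrial limit of 5%.

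**Figure D1:**
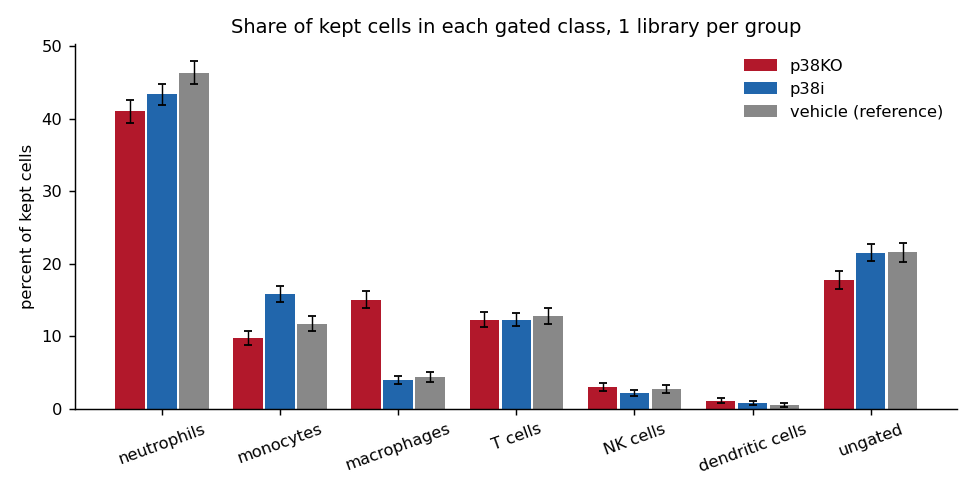
Bars give the percent of kept cells in each class for the p38KO, p38i and vehicle libraries, 1 library per group, with exact 95% binomial intervals for counting error. Macrophages stand at 15.1% in p38KO against 3.96% in p38i, while T cells stand at 12.3% and 12.3%.

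Gene levels were compared as the ratio of p38KO to p38i in counts summed over the cells of a class, for genes with at least 100 counts over both libraries, and a gene was called when that ratio reached 2-fold. Positive log2 ratios mean a higher level in p38KO. Within every class the libraries were close over most genes: 85.0% of the 5452 genes compared in neutrophils and 94.9% of the 5991 compared in T cells differed by less than 1.5-fold. The median log2 ratio over all genes lay between 0.00330 in dendritic cells and 0.0578 in macrophages. Most genes past 2-fold were so in a single class, 390 of the higher and 147 of the lower genes, and 5 genes were higher in 4 classes, with none higher in more. These 5 were 4 mast cell proteases, Mcpt1, Mcpt2, Tpsab1 and Tpsb2, and Irf7. Irf7, a transcription factor of the interferon response, was past 2-fold higher in p38KO in neutrophils, monocytes, macrophages and dendritic cells. Ifit1, Ifit3, Ifit3b and Ccl8 were so in neutrophils, monocytes and macrophages. In macrophages the log2 ratios of Ifit1 and Ifit3 fell as low as 0.57 and 0.80 when the processing was varied, short of 2-fold. Ccl8 is itself a macrophage gene, and the part of free RNA or doublets in its neutrophil value was not tested. In monocytes a single cell held a large share of the p38KO counts of Ccl8.

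**Figure D2:**
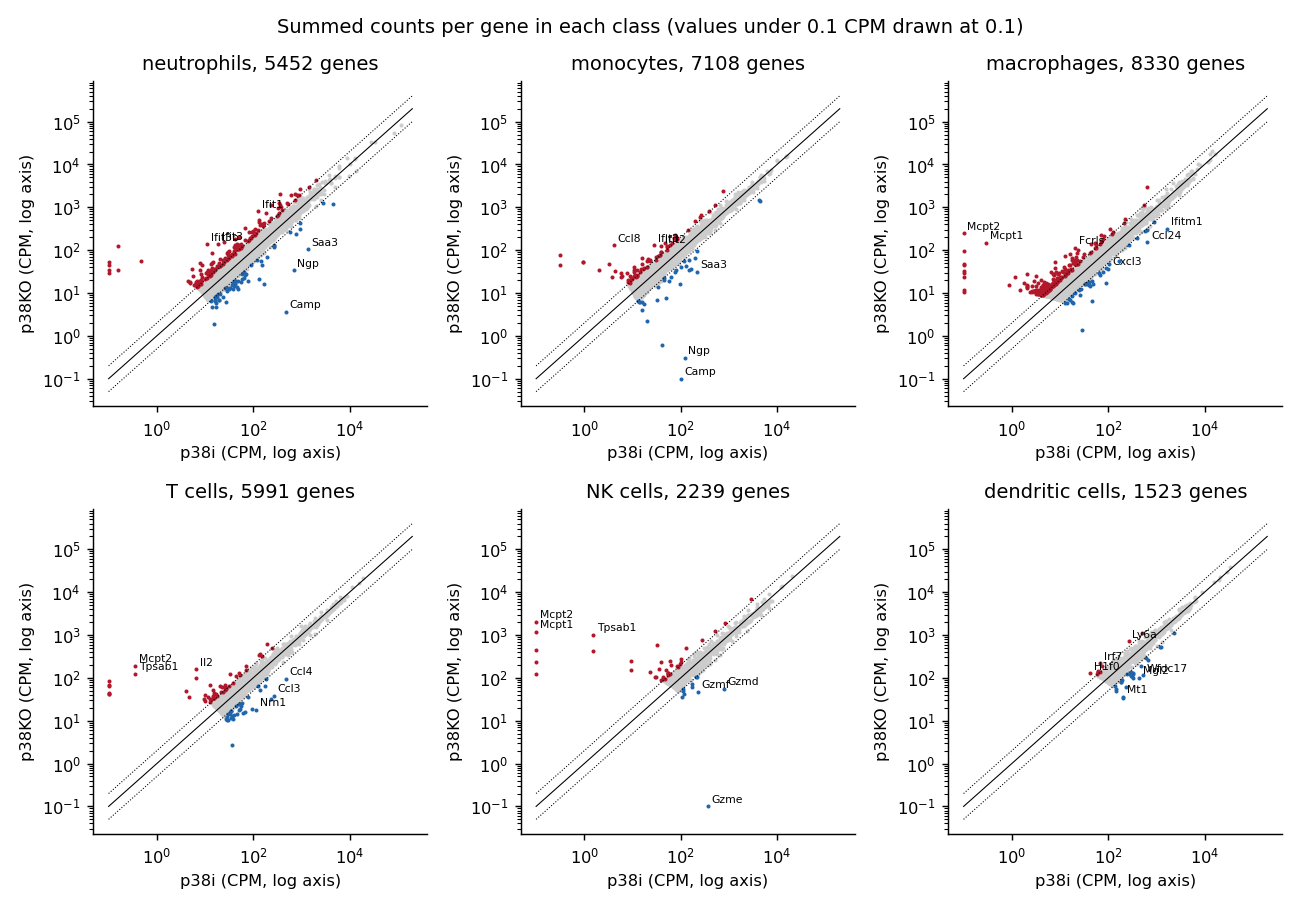
Each panel plots the level of every compared gene in p38KO against p38i as CPM of the summed class, on log axes, with lines at equal levels and at 2-fold either way. Red points are at least 2-fold higher in p38KO and blue points at least 2-fold lower, and 3 named genes per direction are labelled, such as Ifit3b in neutrophils (138 against 11.0 CPM). The unlabelled points at the left edge of the neutrophil panel are keratin and mast cell protease genes.

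In neutrophils, the short-lived granulocytes and the largest class in both libraries, genes of the type I interferon response were higher in p38KO and genes of neutrophil granules were lower. Of 20 type I interferon genes compared, 14 were at least 2-fold higher in p38KO, 0 were at least 2-fold lower and all 20 had a ratio above 1, with a median log2 ratio of 1.46 against 0.00565 over all genes compared. Over all 5452 genes, 154 or 2.82% were at least 2-fold higher and 62 or 1.14% at least 2-fold lower. The 6 genes with the largest ratios that met the naming rule were Ifit3b, Ifit3, Ifit1, Ifit2, Rsad2 and Cxcl10, all induced by interferons. Ratios larger than that of Ifit3b belonged to genes the rule left out as too low or as markers of other cells, named here after their values were seen: the keratinocyte-type epithelial genes Krt14 (124 against 0.159 CPM), Krt5 (53.7 against 0) and Lgals7 (35.0 against 0.159), and the mast cell proteases Mcpt1, Mcpt2, Tpsab1 and Tpsb2.

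The promoters of these genes are where interferon-activated factors are known to bind, so 4 of them are shown with a letter pattern of the interferon-stimulated response element, GAAA, then any 2 bases, then GAAA again, searched on both strands and put in capitals where it or its reverse complement occurs. The sequences are from RefSeq on GRCm38.p6, in the direction of transcription, and run from 250 to 31 bases before the annotated start.
Ifit1, chr19:34640639-34640858, plus strand: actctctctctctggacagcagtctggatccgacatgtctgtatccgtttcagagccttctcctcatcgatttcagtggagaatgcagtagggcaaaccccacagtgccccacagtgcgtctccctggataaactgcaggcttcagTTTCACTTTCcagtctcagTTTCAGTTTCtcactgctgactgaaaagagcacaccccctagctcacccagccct
Ifit3, chr19:34583279-34583498, plus strand: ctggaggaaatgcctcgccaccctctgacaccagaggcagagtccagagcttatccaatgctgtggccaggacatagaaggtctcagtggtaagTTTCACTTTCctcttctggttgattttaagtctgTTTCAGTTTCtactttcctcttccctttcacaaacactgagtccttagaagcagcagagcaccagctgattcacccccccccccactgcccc
Rsad2, chr12:26456483-26456702, minus strand: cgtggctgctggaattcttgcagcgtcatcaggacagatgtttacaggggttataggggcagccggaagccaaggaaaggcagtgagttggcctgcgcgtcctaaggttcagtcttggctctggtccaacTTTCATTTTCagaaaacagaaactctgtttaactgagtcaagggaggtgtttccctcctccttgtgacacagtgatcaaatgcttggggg
Isg15, chr4:156200849-156201068, minus strand: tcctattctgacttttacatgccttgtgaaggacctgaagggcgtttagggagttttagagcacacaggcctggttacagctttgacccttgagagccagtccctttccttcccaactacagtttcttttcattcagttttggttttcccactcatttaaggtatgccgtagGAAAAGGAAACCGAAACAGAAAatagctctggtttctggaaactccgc
Ifit1 and Ifit3 each held the pattern at 2 places, Rsad2 at 1 and Isg15 in a run of 3 overlapping matches. Among the 17 genes of the type I interferon list with a sequence, of 22 listed, 6 or 35.3% held it in this window, compared with 830 or 3.07% of 27025 genes. The interferon-gamma response list held it as often, in 6 of 16 genes or 37.5%, and the neutrophil granule list in 1 of 14. Ifit2, Irf7 and Oasl1 held no match in the window. A match describes the letters of the promoter and no binding was measured.

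Ifit1, which encodes a protein that binds viral RNA caps, stood at 801 CPM (774 to 829) in p38KO, 127 CPM (118 to 136) in p38i and 459.9 in vehicle neutrophils, a log2 ratio of 2.66 (2.55 to 2.77). Rsad2, the gene for the antiviral enzyme viperin, stood at 2073 CPM (2029.9 to 2118), 353 CPM (338 to 368) and 1137, a log2 ratio of 2.56 (2.49 to 2.62). Isg15, a ubiquitin-like modifier, stood at 2714 CPM in p38KO, 952 in p38i and 2006 in vehicle. For each of these genes the vehicle level lay between the other two, with p38i lowest. Ifit3b and Ifit3 had log2 ratios of 3.65 (3.29 to 4.03) and 2.90 (2.61 to 3.19), and because they are near-identical neighbours on chromosome 19 the reads may be split between them. Ifit2 was 152 CPM in p38KO, 24.8 in p38i and 77.7 in vehicle. Among the sensors and regulators of the list, Cmpk2 (2.12), Usp18 (1.997), Oasl1 (1.86), Oasl2 (1.54), Irf7 (1.41), Ifih1 (1.31), Xaf1 (1.28) and Bst2 (1.23) were past 2-fold on the log2 scale given. Ddx58 (0.99), Ifitm3 (0.34) and Ifi44 (0.47) were not.

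The interferon genes were also seen in a larger share of neutrophils. With every cell thinned to 1500 UMIs, 69.0% (66.7 to 71.3) of p38KO neutrophils carried at least 3 of the 21 measured list genes, against 47.1% (45.0 to 49.3) in p38i and 58.7% in vehicle. Rsad2 was detected in 39.3% and 16.1% of neutrophils at that depth, and in 2.33% and 1.36% of T cells. The cell with the most counts held 1.92% of the Rsad2 counts in p38KO and 3.07% in p38i. Summed over the 21 genes, the level was 11795 CPM in p38KO, 5051 in p38i and 8514 in vehicle.

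Of the interferon-gamma response list, 4 of 17 compared genes were at least 2-fold higher in neutrophils of p38KO and 0 lower. These were the chemokine genes Cxcl9 and Cxcl10, whose products draw T cells, and the guanylate-binding proteins Gbp3 and Gbp5. Cxcl10 stood at 1155 CPM in p38KO, 235 in p38i and 399.9 in vehicle, and Gbp5 at 314 CPM in p38KO, 108 in p38i and 167 in vehicle. Cxcl9 was a low transcript here, 85.4 CPM in p38KO, 28.8 in p38i and 30.4 in vehicle, and 28.7% of its p38i counts lay in 1 cell.

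Granule genes, which encode the stored antimicrobial proteins and are made mostly while neutrophils mature in the marrow, lay on the other side. Of 12 compared, 6 were at least 2-fold lower in p38KO, 0 were higher, and 11 of 12 had a ratio below 1, with a median log2 ratio of -0.98. The 6 were Camp, Ngp, Ltf, Prtn3, Chil3 and Mmp8. Camp, the cathelicidin gene, had 15 against 2951 counts, or 3.60 CPM in p38KO, 469.99 in p38i and 261 in vehicle, a log2 ratio of -7.03 (-7.87 to -6.31) that came to -1.84 without the deepest 5% of cells. Ngp, another secondary granule gene, had 140 against 4319 counts and a log2 ratio of -4.36 (-4.61 to -4.11), or -2.82 with the gate on thinned counts. These transcripts came from few cells: Camp was detected in 0.442% of p38KO and 1.25% of p38i neutrophils, and 1 cell held 34.3% of the p38i counts, while 0% and 0.170% of T cells had a Camp UMI. For Ltf, the lactoferrin gene, the shares of positive cells were 2.15% and 2.12%, against 0.211% and 0.340% of T cells, and its log2 ratio of -3.35 turned to 0.42 without the deepest 5% of cells. Mmp8, a collagenase, was 124 CPM in p38KO, 264 in p38i and 225 in vehicle, and Lcn2, a siderophore-binding protein, had a log2 ratio of -0.86. S100a8 and S100a9, the calprotectin subunits and the most abundant genes of the list, had smaller differences, -0.65 and -0.51. Arg1, the arginase of suppressive myeloid cells, had a log2 ratio of -1.04 and the chitinase-like gene Chil3 -1.60, but Arg1 turned to 0.11 without the deepest 5% of cells and Chil3 to 0.51 with the gate on thinned counts.

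**Figure D3:**
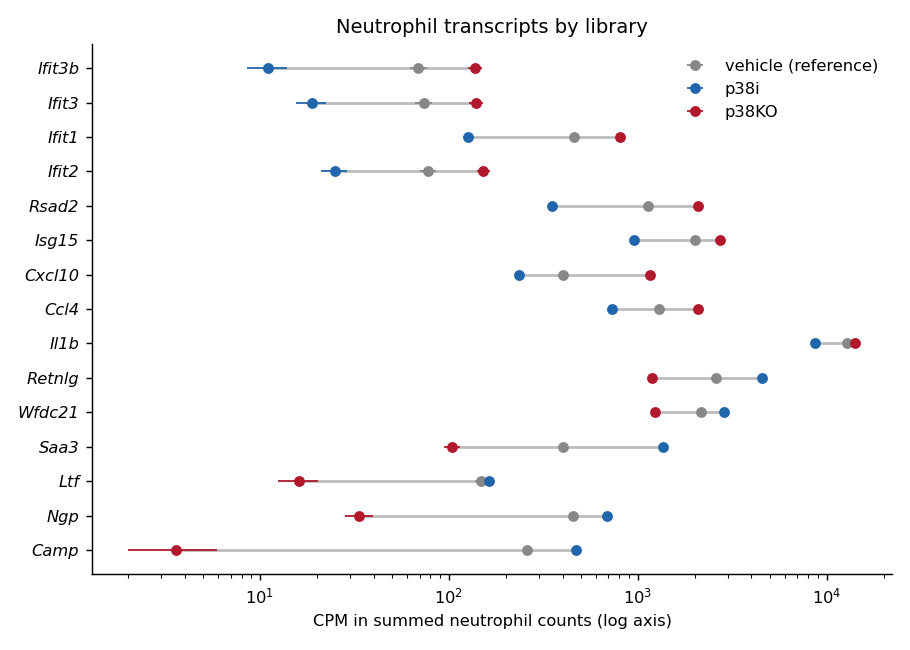
Points give the level of 15 genes in summed neutrophil counts of each library as CPM on a log axis, with exact 95% Poisson intervals. For the interferon-induced genes p38i is lowest and p38KO highest, for Saa3, Ngp and Camp the order is reversed, and the vehicle point lies between them in every row shown.

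Other secreted-protein genes were also lower in p38KO, and Saa3, Retnlg and Wfdc21 were so over a larger share of neutrophils. Saa3, serum amyloid A3, stood at 104 CPM (94.8 to 115) in p38KO and 1360.5 CPM (1332 to 1389.6) in p38i, with 402 in vehicle, and was detected in 2.91% and 20.1% of neutrophils, compared with 0% and 0.340% of T cells. Retnlg, a resistin-like gene of neutrophils, stood at 1187 CPM in p38KO, 4555 in p38i and 2594 in vehicle. Wfdc21, a secreted protein of granulocytes, was 1233 CPM in p38KO, 2871 in p38i and 2156 in vehicle, detected in 52.5% and 75.1% of neutrophils and 0.634% and 0.509% of T cells. Ccl24, an eotaxin, was among the 6 named lower genes at 21.1 CPM in p38KO, 133 in p38i and 28.4 in vehicle, with 30.7% of the p38KO counts and 27.1% of the p38i counts in 1 cell each. It came from few cells, detected in 0.948% of p38KO and 2.12% of p38i neutrophils.

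Inflammatory transcripts that the p38-MK2 branch is known to stabilise were higher in p38KO than in p38i neutrophils for 5 of 16 compared genes at the 2-fold limit and lower for 1. Over all genes compared in neutrophils, 2.82% were at least 2-fold higher and 1.14% at least 2-fold lower. The median log2 ratio of the list was 0.66. The 5 higher genes were Il1a (1.65), Ccl4 (1.504), Tnfaip3 (1.34), Tnf (1.29) and Osm (1.23), which encode cytokines, a chemokine and an inhibitor of NF-κB signalling. Ccl4 stood at 2081 CPM in p38KO, 734 in p38i and 1301 in vehicle. Il1b, the most abundant of the list, was 14194 CPM in p38KO, 8726 in p38i and 12812 in vehicle, short of 2-fold. Tnf was a low transcript, 238 against 147 counts, and Ccl2, the single gene past 2-fold lower, had 34 against 147 counts with 31.3% of the p38i counts in 1 cell. Zfp36, which encodes the decay factor of these mRNAs, had a log2 ratio of 0.90. Among phosphatases that switch MAP kinases off, Dusp2 (2.08) and Dusp1 (1.02) were past 2-fold of 5 compared, and Dusp1 fell short of 2-fold in 6 of the alternatives, at 0.84 with cells thinned to 1500 UMIs. Of 13 compared genes of the p38 cascade itself, 0 were past 2-fold in either direction. Mapk14 stood at 33.3 CPM in p38KO, 35.2 in p38i and 29.1 in vehicle, and Mapkapk2, the MK2 gene, had a log2 ratio of 0.34.

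Among chemokine receptors, Cxcr4, which holds neutrophils in the marrow and marks aged cells, was 362 CPM in p38KO, 156 in p38i and 232 in vehicle, and Ccrl2, a receptor that binds chemerin, was 1928 CPM in p38KO, 815 in p38i and 1537 in vehicle. They were the 2 of 7 compared receptors past 2-fold higher in p38KO. Slc7a11, the cystine transporter subunit, was 385 CPM in p38KO, 157 in p38i and 231 in vehicle. All 23 compared genes of hypoxia and glycolysis stayed within 2-fold in neutrophils, with a median log2 ratio of -0.11. Genes that define macrophages were also higher in the p38KO neutrophil sum: C1qb had 184 against 55 counts, C1qc 214 against 50 counts and Ccl8 150 against 34 counts. The summed level of 9 macrophage markers in that class was 905 CPM in p38KO and 681 in p38i, and of 6 tumour epithelial markers 141 and 3.98. The part of free RNA or doublets in these values was not tested.

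In monocytes the same kinds of gene stood apart. Of 21 type I interferon genes compared, 11 were at least 2-fold higher in p38KO and all 21 had a ratio above 1, with a median log2 ratio of 1.06 against 0.0259 over all genes. The background was 74 of 7108 genes, 1.04%, at least 2-fold higher and 31, 0.436%, at least 2-fold lower. Ifit3 stood at 129.7 CPM in p38KO, 28.4 in p38i and 60.9 in vehicle, Ifit2 at 123 CPM in p38KO, 39.1 in p38i and 73.8 in vehicle, Oasl1 at 147 CPM in p38KO, 48.0 in p38i and 71.6 in vehicle and Ifit1 at 207 CPM in p38KO, 78.4 in p38i and 115 in vehicle. Their log2 ratios were 2.19 (1.93 to 2.45), 1.65 (1.42 to 1.89), 1.62 (1.41 to 1.83) and 1.403 (1.23 to 1.57). Irf7 (1.26) and Isg15 (1.06) were nearer the limit, and Isg15 came to 0.99 with the class set by the largest count. At 1500 UMIs, 72.2% (67.4 to 76.7) of p38KO monocytes and 57.4% (53.8 to 60.9) of p38i monocytes carried at least 3 list genes.

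The other 2 leading genes encode chemokines. Ccl8 had 421 against 26 counts, a log2 ratio of 4.996 (4.42 to 5.63), and 1 cell held 43.0% of the p38KO counts. Ccl7 was 229 CPM in p38KO, 77.5 in p38i and 113 in vehicle, with a log2 ratio of 1.56 (1.398 to 1.73) that came to 0.95 with the gate on thinned counts. Ccl2, their neighbour in the genome, had a log2 ratio of 0.72, and Cxcl10 one of 0.23, far from the 2.30 of neutrophils. By the share of positive cells in thinned counts the classes were closer for Cxcl10. It was detected in 15.6% of p38KO and 8.58% of p38i monocytes, and in 15.2% of p38KO and 6.45% of p38i neutrophils. Cfb, complement factor B of the alternative pathway, was 178 CPM in p38KO, 81.0 in p38i and 91.6 in vehicle. Lpl, lipoprotein lipase, had 157 against 21 counts, but 60.5% of the p38KO counts came from 1 cell.

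The 6 named lower genes of monocytes included 4 that neutrophils also express. Camp had 0 against 645 counts, which makes it at least 109-fold lower in p38KO when the 0 is set to 3 counts in the class, and 1 cell held 80.5% of the p38i counts. Ngp had 1 against 762 counts, with 65.1% of the p38i counts in 1 cell, and its log2 ratio came to -0.58 with the gate on thinned counts. Saa3 was 30.8 CPM in p38KO, 215 in p38i and 126 in vehicle, and Wfdc21 was 35.8 CPM in p38KO, 167 in p38i and 187 in vehicle. The summed neutrophil markers in the monocyte class were 3612 CPM in p38KO and 9767 in p38i, so neutrophil transcripts moved with these genes, and their part in the ratios was not tested. Vcan, the matrix proteoglycan versican of classical monocytes, was 59.1 CPM in p38KO, 149 in p38i and 138 in vehicle, and Dmkn, dermokine, was 95.5 CPM in p38KO, 223 in p38i and 175 in vehicle. Tnfrsf9, the costimulatory receptor 4-1BB, was 15.9 CPM in p38KO, 95.8 in p38i and 48.1 in vehicle. The sum of 6 B cell markers also differed in this class, at 2464 CPM in p38KO and 791 in p38i. Yet 3 of these markers had 0 counts in p38KO and 0 of them had 0 counts in p38i. The sums therefore do not measure a share of B cells.

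Macrophages of p38KO tumours were higher in Ccl8, Fcrls and complement C4b and lower in Ifitm1, Ccl24 and several S100 genes. Over 8330 genes, 217 or 2.61% were at least 2-fold higher and 37 or 0.444% at least 2-fold lower. Ccl8 was the most abundant of the named genes, 2962 CPM (2928 to 2997) in p38KO, 629 CPM (603 to 656) in p38i and 859.7 in vehicle, a log2 ratio of 2.24 (2.17 to 2.30). It was detected in 55.5% and 22.1% of macrophages at 1500 UMIs, and in 2.54% and 0.170% of T cells. Fcrls, an Fc receptor-like scavenger receptor, stood at 113 CPM in p38KO, 20.6 in p38i and 26.0 in vehicle, and C4b at 103 CPM in p38KO, 23.3 in p38i and 39.8 in vehicle. Their log2 ratios were 2.46 (2.11 to 2.83) and 2.14 (1.81 to 2.49). Cxcl2, a chemokine for neutrophils, was 228 CPM in p38KO, 71.0 in p38i and 221 in vehicle, and it was detected in 9.62% and 9.47% of macrophages, against 4.44% and 3.23% of T cells.

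Mcpt2 and Mcpt1, proteases of mucosal mast cells, headed the list by ratio. Mcpt2 had 2385 against 0 counts, at least 281-fold higher in p38KO with the 0 set to 3 counts, yet it was seen in 3.61% of macrophages and 33.3% of its counts lay in 1 cell. Mcpt1 had 1441 against 1 counts, 73.4% of them in 1 cell of p38KO. The 8 mast cell or basophil markers summed to 167 CPM in p38KO macrophages and 1.47 in p38i macrophages. Without the cells that carried at least 5 UMIs of those markers the log2 ratio of Mcpt2 came to 5.65 and that of Mcpt1 to 4.13, while Ccl8, Fcrls, C4b and Cxcl2 came to 2.23, 2.42, 2.14 and 1.72. Gzma (223 against 4 counts), Nkg7 (161 against 6 counts) and Xcr1 (103 against 0 counts), genes of lymphocytes and of cross-presenting dendritic cells, were also higher in p38KO at low levels.

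On the lower side, Ifitm1, an interferon-induced membrane protein, stood at 318 CPM (307 to 329.9) in p38KO, 1680.2 CPM (1637 to 1724) in p38i and 1156 in vehicle, and was detected in 13.7% and 43.7% of macrophages and 19.0% and 14.9% of T cells. In NK cells Ifitm1 lay the other way, at 749 CPM in p38KO and 279 in p38i. Ccl24, an eotaxin of alternatively activated macrophages, stood at 152 CPM in p38KO, 648 in p38i and 224 in vehicle, detected in 11.2% and 35.8% of macrophages and 0% and 0.170% of T cells. S100a6, S100a10 and S100a11, calcium-binding proteins, stood at 298, 189 and 282 CPM in p38KO and 645, 405 and 592 in p38i. Their log2 ratios of -1.11, -1.10 and -1.07 came to -0.97, -0.96 and -0.98 with a mitochondrial limit of 5%. Cxcl3 was 36.2 CPM in p38KO, 101 in p38i and 55.5 in vehicle, with 77.0% of the p38i counts in 1 cell. The lipid-associated genes differed in sign: Trem2 (0.58) and Apoe (0.57) had positive log2 ratios, and Spp1 (-0.67), Fabp5 (-0.98), Cd9 (-1.02) and Lpl (-2.78) negative ones, with 2 of 14 past 2-fold lower.

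By gene ratios the interferon difference was smaller in macrophages, but by the share of positive cells it was not. At 1500 UMIs, 57.4% (53.3 to 61.4) of p38KO and 34.7% (28.0 to 42.0) of p38i macrophages carried at least 3 list genes. Of 21 type I interferon genes compared, 4 (Ifit3b, Ifit3, Irf7 and Ifit1) were at least 2-fold higher in p38KO. At the weakest, Ifit3 and Ifit1 came to log2 ratios of 0.80 and 0.57 under the alternatives, short of 2-fold. The median log2 ratio was 0.75, and 20 of the 21 genes had a ratio above 1, with the lowest log2 ratio at -0.62. The summed level was lower in p38KO, 4015 CPM in p38KO and 4240.1 in p38i. Irf7 stood at 219.7 CPM in p38KO, 82.8 in p38i and 100.1 in vehicle. Of 18 cell cycle genes, 5 were at least 2-fold higher (Ube2c, Cdk1, Cenpf, Mki67 and Top2a) and the median log2 ratio was 0.61. Mki67, the proliferation marker, was 87.9 CPM in p38KO, 41.8 in p38i and 54.9 in vehicle, and each of the 5 fell short of 2-fold under some alternative. With cells thinned to 1500 UMIs Cdk1 turned to -0.16, Mki67 came to 0.53 and Ube2c to 0.74, with a mitochondrial limit of 5% Cenpf came to 0.88, and with the gate on thinned counts Top2a came to 0.89. No gene of hypoxia and glycolysis reached 2-fold, but 21 of 23 had a log2 ratio below 0, with a median of -0.49. Ldha, lactate dehydrogenase A, stood at 863 CPM in p38KO, 1252 in p38i and 1099 in vehicle, and Ndrg1, a hypoxia-induced gene, had a log2 ratio of -0.95. All 7 compared MHC class II genes stayed within 2-fold, with H2-Aa at 0.39 and Cd74 at 0.45. The macrophages of p38KO were shallower, with a median of 13746 UMIs against 17104, and their median mitochondrial share was 3.87% against 3.08%. Whether depth or mitochondrial share had a part in these values was not tested beyond the alternatives.

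**Figure D4:**
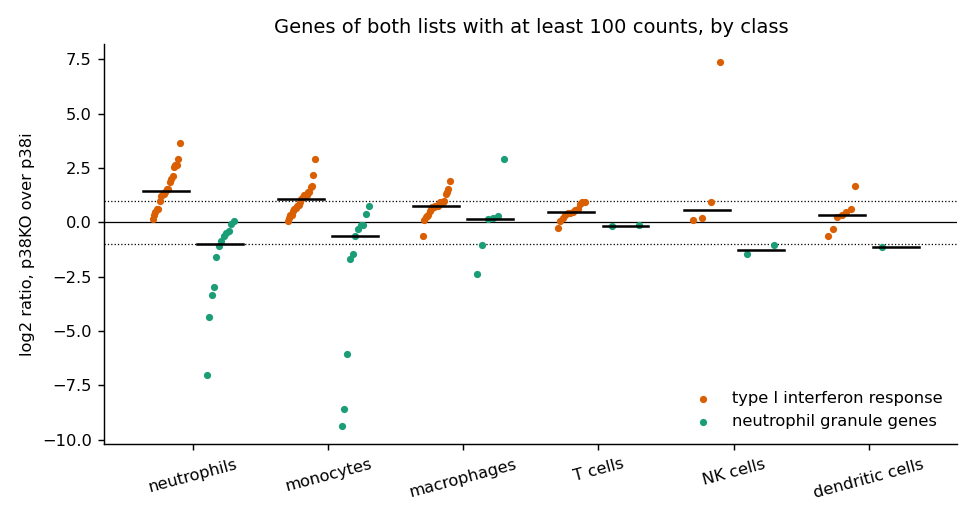
Each point is a gene with at least 100 counts, placed by its log2 ratio of p38KO over p38i in each class, for the type I interferon and neutrophil granule lists, with black bars at the list medians and dotted lines at 2-fold. The interferon median is 1.46 in neutrophils, 1.06 in monocytes, 0.75 in macrophages and 0.45 in T cells.

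In T cells, 51 of 5991 genes, 0.851%, were at least 2-fold higher in p38KO and 32, 0.534%, at least 2-fold lower. The lower genes included effector and exhaustion transcripts. The 8 NK markers in this class, which include Prf1, moved with them, at 309.7 CPM in p38KO, 523 in p38i and 563 in vehicle, and the 9 macrophage markers summed to 226 and 56.6 CPM, and their part in the ratios was not tested. Of 12 compared cytotoxic effector genes, 3 were at least 2-fold lower and 1 higher, and of 9 inhibitory receptor and exhaustion genes 2 were lower and 0 higher. Lag3 and Havcr2, the genes that were lower, came to -0.78 and -0.63 with cells thinned to 1500 UMIs, short of 2-fold. Prf1, the pore-forming perforin, stood at 31.6 CPM (25.1 to 39.3) in p38KO, 234 CPM (216 to 253) in p38i and 295 in vehicle. Ccl3 and Ccl4, chemokines that activated cytotoxic cells secrete, stood at 38.3 CPM in p38KO, 265 in p38i and 81.0 in vehicle, and at 94.4 CPM in p38KO, 477 in p38i and 321 in vehicle. Their log2 ratios were -2.79 (-3.11 to -2.48) and -2.34 (-2.54 to -2.14), with 24.9% and 21.7% of the p38i counts in 1 cell. The shares of positive T cells at 1500 UMIs were closer. Ccl3 was detected in 3.38% of p38KO and 4.24% of p38i T cells, and Ccl4 in 7.40% and 8.32%. Gzmk was 13.4 CPM in p38KO, 40.0 in p38i and 50.9 in vehicle, and Gzmb, granzyme B, had a log2 ratio of -0.37. Lag3, an inhibitory receptor that binds MHC class II, was 92.4 CPM in p38KO, 188 in p38i and 212 in vehicle, and Havcr2, the TIM-3 gene, 22.1 CPM in p38KO, 55.1 in p38i and 51.2 in vehicle. Pdcd1, Tox and Ctla4 had log2 ratios of -0.43, -0.67 and -0.01, within 2-fold.

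Cells with Cd8a or Cd8b1 but no Cd4 at 1500 UMIs numbered 120 in p38KO and 207 in p38i, and cells with Cd4 alone 87 and 98. The CD4 cells were 42.0% (35.2 to 49.1) of the cells so typed in p38KO, 32.1% (26.9 to 37.7) in p38i and 24.6% in vehicle, so the mixture moved with the gene levels above. Within CD8 cells the level was lower in p38KO for Ccl3, Ccl4, Prf1, Gzmk, Lag3 and Havcr2. Gzmb, Pdcd1, Tox and Ctla4 were not computed by subset. Ccl3 had 11 against 671 counts and a log2 ratio of -5.10 (-6.11 to -4.25), Prf1 56 against 574 counts and -2.53 (-2.95 to -2.13), and Lag3 31 against 363 counts and -2.72 (-3.30 to -2.19). The log2 ratio there was -2.60 (-3.70 to -1.67) for Havcr2 and -1.64 (-2.51 to -0.87) for Gzmk. Within CD4 cells the direction was the opposite for Lag3, 108 against 39 counts and 1.20 (0.66 to 1.77), and for Havcr2, 25 against 9 counts and 1.20 (0.06 to 2.49). Ccl3 had 43 against 0 counts in CD4 cells. Nrn1, neuritin, which was among the 6 named lower genes, had 9 against 271 counts in CD8 cells. Nr4a2, an orphan nuclear receptor induced by antigen, had 2 against 92 counts there, a log2 ratio of -4.69 (-7.76 to -2.80). The other named lower genes were Nrgn, neurogranin, at 52.5 CPM in p38KO, 136 in p38i and 111 in vehicle, and Cenpa, a centromere histone, at 68.3 CPM in p38KO, 128 in p38i and 74.3 in vehicle, which was short of 2-fold.

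**Figure D5:**
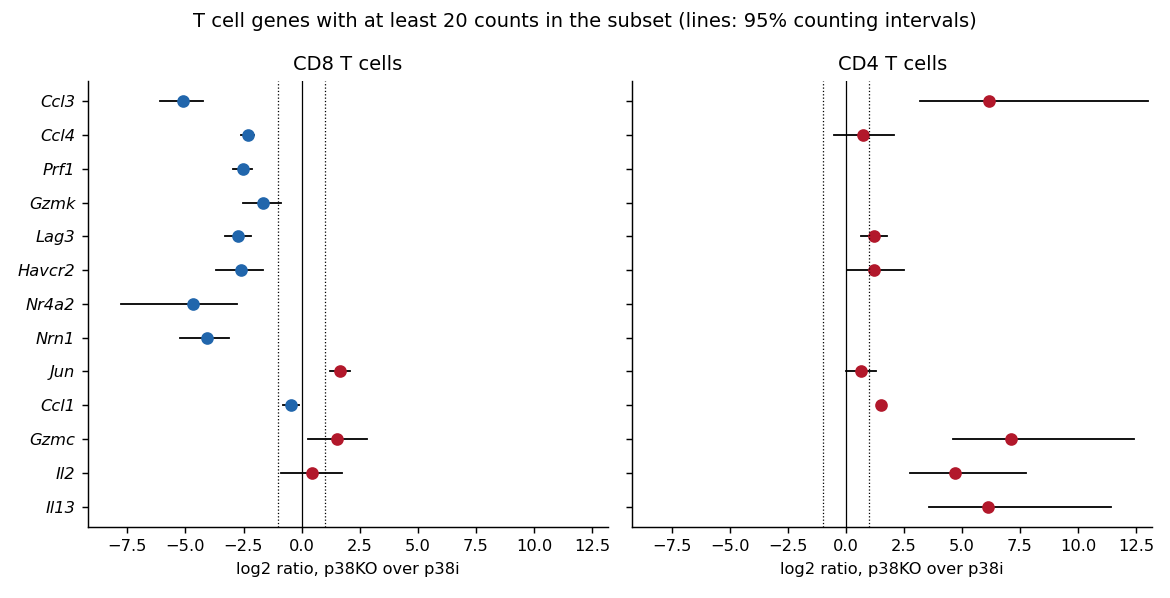
Points give the log2 ratio of p38KO over p38i for 13 named or listed T cell genes within CD8 and within CD4 cells, where a gene had at least 20 counts, with 95% counting intervals drawn no further than the axis. Lag3 and Havcr2 lie left of 0 in CD8 cells (-2.72 and -2.60) and right of it in CD4 cells (1.20 and 1.20).

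The higher genes of p38KO T cells were mostly carried by few cells, and several belong to type 2 immunity, the response of helper T cells and mast cells to parasites and allergens. Of 6 compared type 2 genes, 3 were at least 2-fold higher: Il13 (125 against 11 counts), Il1rl1, the receptor of the alarmin IL-33 (166 against 56 counts), and Ccl1, a chemokine for CCR8-positive cells (1522 against 527 counts). Gata3, their transcription factor, had a log2 ratio of 0.78. Il2, the T cell growth factor, had 401 against 18 counts, with 78.1% of the p38KO counts in 1 cell, and Gzmc, a granzyme of strongly activated cells, 256 against 18 counts, with 44.1% in 1 cell. In CD4 cells Il13 had 83 against 1 counts, Gzmc 167 against 1 counts and Ccl1 953 against 276 counts, whereas Ccl1 in CD8 cells had 95 against 232 counts. Jun, a subunit of AP-1, was spread more widely, detected in 19.2% and 7.47% of T cells and 37.8% and 35.7% of neutrophils, and stood at 192 CPM in p38KO, 70.6 in p38i and 218 in vehicle, so the vehicle level was nearest to p38KO. Csf2, the GM-CSF gene, had 279 against 122 counts, and its log2 ratio of 1.33 turned to -0.63 without the deepest 5% of cells. Mcpt2 (486 against 1 counts) and Tpsab1 (320 against 1 counts), mast cell proteases, led by ratio, and 1 cell held 82.5% and 61.6% of their p38KO counts. The mast cell or basophil markers summed to 276 CPM in p38KO and 21.3 in p38i T cells. Foxp3, the factor of regulatory T cells, stood at 111 CPM in p38KO, 103 in p38i and 75.6 in vehicle, and 0 of 7 regulatory T cell genes were past 2-fold in either direction. Of 12 type I interferon genes, 0 reached 2-fold, with a median log2 ratio of 0.45.

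NK cells, innate killers of stressed and infected cells, were few, 116 in p38KO and 106 in p38i, so that single cells set many values. Over 2239 genes, 37 or 1.65% were at least 2-fold higher in p38KO and 11 or 0.491% at least 2-fold lower. The granzyme cluster of activated NK cells was lower for 3 members: Gzme had 0 against 243 counts, at least 105-fold lower with the 0 set to 3 counts, Gzmd 48 against 522 counts and Gzmf 40 against 149 counts. Between 70.4% and 79.2% of their p38i counts lay in 1 cell. Gzmc, of the same cluster, went the other way, 6793 CPM in p38KO, 2847 in p38i and 2231 in vehicle, with 38.3% and 45.9% of counts in 1 cell. The broadly expressed effectors were nearer each other: Gzma stood at 4249.6 CPM in p38KO, 6907 in p38i and 6633 in vehicle, Gzmb at 1249.9 CPM in p38KO, 2321 in p38i and 1824 in vehicle and Prf1 at 719.6 CPM in p38KO, 1162 in p38i and 984 in vehicle, with log2 ratios of -0.70 (-0.76 to -0.64), -0.89 (-1.01 to -0.78) and -0.69 (-0.85 to -0.54). Ifng, the macrophage-activating cytokine, was 107 CPM in p38KO, 29.0 in p38i and 40.7 in vehicle, a log2 ratio of 1.88 (1.16 to 2.68), and Xcl1, a chemokine for cross-presenting dendritic cells, was 1879 CPM in p38KO, 827 in p38i and 1009.6 in vehicle. In all, 2 of 14 cytotoxic effector genes were at least 2-fold higher and 3 at least 2-fold lower. Mki67 had 31 against 71 counts and a log2 ratio of -1.57 (-2.23 to -0.94), and all 8 compared cell cycle genes had ratios below 1.

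The leading higher genes in NK cells were mast cell proteases and 1 interferon gene. Mcpt2 had 1743 against 0 counts, Mcpt1 995 against 0 counts and Tpsab1 856 against 1 counts, and Mcpt2 was at least 448-fold higher with the 0 set to 3 counts. The mast cell or basophil markers summed to 1834 CPM in p38KO and 58.0 in p38i NK cells. At least 5 UMIs of these markers were carried by 10 of the 116 NK cells in p38KO and 0 of the 106 in p38i. Leaving these cells out brought the log2 ratios of Mcpt2 and Mcpt1 to 4.06 each and of Tpsab1 to 2.55. Rsad2 had 107 against 0 counts, with 98.1% in 1 cell. Apoe (2.55), H2-Aa (1.81) and Cd74 (2.54), genes of macrophages and antigen-presenting cells, were past 2-fold higher, and turned to -0.18, -0.45 and -0.43 with the class set by the largest count. The 9 macrophage markers summed to 436 and 44.2 CPM in this class. The part of such transcripts in the ratios of Gzma, Gzmb and Prf1 was not tested.

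Dendritic cells, which present antigen to T cells, numbered 41 and 40. Of 1523 genes, 10 or 0.657% were at least 2-fold higher in p38KO and 25 or 1.64% at least 2-fold lower. Higher genes were 28.6% of those past 2-fold, and 51.4% when CPM was averaged over cells. Irf7 stood at 217 CPM in p38KO, 68.9 in p38i and 209 in vehicle, a log2 ratio of 1.66 (1.11 to 2.24), and Ly6a, an interferon-induced surface protein, at 717 CPM in p38KO, 265 in p38i and 399 in vehicle. Ly6a came to a log2 ratio of 0.16 with doubled gate minimums, and 1 cell held 29.9% of its p38KO counts and 31.3% of its p38i counts. H1f0, a linker histone, and Hps3, a gene of lysosome-related organelles, had log2 ratios of 1.58 (0.88 to 2.35) and 1.30 (0.75 to 1.87), and came to 0.98 and 0.94 with the gate on thinned counts. Mt1, metallothionein 1, Wfdc17, Mgl2, a lectin of type 2 conventional dendritic cells, and Serpina3g, a protease inhibitor, were lower, with log2 ratios of -2.51 (-3.23 to -1.85), -2.23 (-2.62 to -1.85), -2.14 (-2.56 to -1.73) and -1.94 (-2.51 to -1.39). Between 26.5% and 50.7% of the p38i counts of these 4 genes lay in 1 cell. Mt1 turned to 0.38 with the gate on thinned counts and Mgl2 to 0.31 with doubled gate minimums, where Wfdc17 came to -0.93, and Serpina3g came to -0.71 with cells thinned to 1500 UMIs. Markers of other cells were lower in p38KO in the same class. Neutrophil markers summed to 189 CPM in p38KO and 547 in p38i, monocyte markers to 822 and 1204, macrophage markers to 205 and 336 and B cell markers to 0 and 99.3, and their part in the lower genes was not tested.

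Read across the classes, the genes nearest to p38 itself differed little and the transcripts downstream of MK2 differed by class. Mapk14 had log2 ratios of -0.08 in neutrophils, -0.08 in monocytes, -0.11 in macrophages, -0.16 in T cells, -0.38 in NK cells and 0.09 in dendritic cells. In the p38 cascade list the only gene past 2-fold in any class was Zfp36, at 1.01 in macrophages, which came to 0.55 under an alternative. Of the MK2-controlled transcripts compared, 2 of 15 were at least 2-fold higher in monocytes, 2 of 15 in macrophages and 1 of 9 in T cells. In the same order, 0, 1 and 3 were at least 2-fold lower. Over all genes compared in these classes, 1.04%, 2.61% and 0.851% were at least 2-fold higher, and 0.436%, 0.444% and 0.534% at least 2-fold lower. The median log2 ratio of the list was 0.66 in neutrophils, 0.43 in monocytes, 0.44 in macrophages and -0.33 in T cells. Il1a and Osm were higher in monocytes as well, at 1.07 and 1.13, but at the weakest came to 0.92 and 0.86 under the alternatives. Dusp1, the phosphatase that removes activating phosphates from p38, was past 2-fold higher in p38KO in neutrophils (1.02), macrophages (1.12) and T cells (1.02). Each call fell short of 2-fold under an alternative, at 0.84, 0.98 and 0.50, and Dusp1 was at -0.36 within CD4 T cells. Differences between classes were not tested.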

How the data were processed

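Live CD45+ tumour leukocytes were profiled by 10x Genomics 3' single-cell RNA sequencing. The authors deposited raw UMI counts per gene and cell barcode (Cell Ranger, 6.0.0 in the file headers, build mm10, with R 4.2.1 and Seurat 5 in the submitters' notes). Counts were analysed in Python 3.11.15 (numpy 2.4.6, scipy 1.17.1, matplotlib 3.10.9). Class sums were scaled to CPM, with exact Poisson intervals for levels, Clopper-Pearson intervals for shares and conditional binomial intervals for ratios, all at 95%. With 1 library per group no test was run. The named genes had the largest ratios, 6 per direction (4 in NK and dendritic cells), among genes with at least 100 counts over both libraries and 100 CPM in the higher library. Gate genes, mitochondrial, ribosomal, haemoglobin, receptor-segment and unnamed genes, and markers of other classes, were left out. Members of 22 gene lists (310 genes, 2 not found) were added. Members and lists were chosen with earlier results of these data known. Cells positive for several gates stayed ungated and no doublet caller was run. Median log2 ratios of lists with a gene at 0 counts were the same with that gene at the bound set by 3 counts. Each such list had 1 gene at 0, which was its most extreme, so the median could not have changed. The ratio was tested on simulated Poisson counts drawn from class sums, with no spread between cells. It therefore cannot speak for genes with most counts in a single cell. In all, 12 alternatives were tried.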

Additional observations from a re-analysis of the deposited data

Results flagged for a closer look

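Among named and listed genes, Ccl4, Ccl5, Chil3, Cxcl9, Lag3, Lpl and Mki67 stood out because they were at least 2-fold higher in p38KO in 1 class or more and at least 2-fold lower in another. The difference between classes was not tested in any of them. Ccl4 had log2 ratios of 1.504 in neutrophils, 1.29 in macrophages and -2.34 in T cells. Ccl5 was at 1.25 in monocytes and -1.07 in dendritic cells, and at the weakest came to 0.34 and -0.12 under the alternatives. Cxcl9 was at 1.57 in neutrophils and -1.32 in dendritic cells, where it turned to 0.19 with cells thinned to 1500 UMIs. Chil3 was at -1.60 in neutrophils and 2.91 in macrophages, and neither call held with the gate on thinned counts, at 0.51 and 0.31. Lag3 was at 1.02 in macrophages and -1.03 in T cells, and at the weakest came to 0.65 and -0.78. Lpl was at 3.88 in monocytes and -2.78 in macrophages. Mki67 was at 1.07 in macrophages and -1.57 in NK cells, and at the weakest came to 0.53 and -0.96. Over all genes, 3 more did so: Ifitm1 (1.42 in NK cells, -2.40 in macrophages and -1.05 in dendritic cells), S100a4 (1.29 in NK cells and -1.28 in dendritic cells) and Stfa2l1 (1.21 in macrophages and -1.24 in monocytes). S100a4 and Stfa2l1 were chosen after their values were seen.

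Mast cell or basophil markers stood out in cells outside all 6 classes. Their summed level there was 3706 CPM in p38KO and 259 in p38i, above the 161 CPM of the vehicle library. Over all kept cells, 127 of p38KO (3.29%), 27 of p38i (0.563%) and 17 of vehicle (0.445%) carried at least 5 UMIs of these markers, and 84, 11 and 7 of them lay outside the classes. The difference was not tested.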

How the results depend on the processing

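No paired analysis was possible because each group is 1 library. Of 114 values of class shares and of genes past 2-fold, 94 kept within their limit and 20 moved, among them the neutrophil share, whose sign changed. Of 179 log2 ratios past 2-fold, each for a named or listed gene in a class, 109 stayed past 2-fold under every alternative for the whole class. Values within CD8 and CD4 T cells were not part of that count. The cause of each change below was not tested.

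Neutrophil share moved from -2.35 points to 2.23 with doubled gate minimums and -5.49 with the class set by the largest count, and was 37.5% in p38KO and 36.9% in p38i with the gate on thinned counts. The monocyte share moved from -6.02 to -1.26 with the gate on thinned counts, and macrophage share from 11.1 to 9.02 at a mitochondrial limit of 5%. The percent of genes past 2-fold, 3.96, 1.48, 3.05, 1.39, 2.14 and 2.30 in neutrophils, monocytes, macrophages, T, NK and dendritic cells, became 7.92, 4.90, 7.67, 4.04, 6.47 and 7.68 with a minimum of 20 counts, and 25.2, 20.5, 17.9, 19.7, 23.0 and 26.2 with none. Thinning to 1500 UMIs gave 0.828 in T cells and 0.641 in dendritic cells, where doubled gate minimums gave 4.20 and the thinned gate 4.55.

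Log2 ratios reversed as follows. Without the deepest 5% of cells, Ltf (0.42) and Arg1 (0.11) reversed in neutrophils and Csf2 (-0.63) in T cells. With the gate on thinned counts, Chil3 (0.51) reversed in neutrophils, Csf2 (-0.76) in T cells, Cebpb (-0.013) and Cd74 (-0.14) in NK cells, and Mt1 (0.38) and Fabp5 (0.81) in dendritic cells. With the class set by the largest count, S100a8 (0.87), S100a9 (0.46), Apoe (-0.18), H2-Aa (-0.45) and Cd74 (-0.43) reversed in NK cells. Thinning to 1500 UMIs reversed Cdk1 (-0.16) in macrophages and Cxcl9 (0.19) and Iigp1 (0.45) in dendritic cells, averaging CPM over cells reversed Cxcl9 (0.14), and doubled gate minimums Mgl2 (0.31). Within CD8 T cells Ccl1 (-0.46) and Spp1 (-1.08) reversed, and within CD4 T cells Ccl3 (6.15, with 0 counts in p38i), Ccl4 (0.73), Nrgn (1.398), Lag3 (1.20), Havcr2 (1.20), Dusp1 (-0.36), Hspa1b (-2.15) and Hspa1a (-2.04).

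Leaving out cells with mast cell markers was chosen after seeing the data and brought Mcpt2 to 5.65 in macrophages, 5.56 in T cells and 4.06 in NK cells. Some values rest on 1 cell that holds most counts of a gene, as for Mcpt2 in T cells (82.5%), Camp in monocytes (80.5%) and Rsad2 in NK cells (98.1%).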
